A study of Mus musculus with 9 samples.

Results

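The genes described here encode the proteins that license replication origins, unwind and copy DNA, supply nucleotides and restore chromatin in S phase, together with 4 regulators of entry into S phase. They comprise 47 genes, matched by symbol, of the 47643 Ensembl gene IDs in the deposited counts, and the question was whether their RNA moved between the 3 groups of the study. All 47 passed the filter on low counts, a median above 1 CPM (counts scaled to a library total of 1000000) over the 9 libraries, which 11560 genes passed. The cells were bone marrow-derived mast cells (BMMCs), grown from the marrow of C57BL/6 mice for at least 4 weeks in medium with WEHI-3-conditioned supernatant, a source of interleukin-3. Control cells, IgE+BSA cells and IgE+BSA+Luteolin cells were sequenced in 3 libraries each. In the study's methods IgE+BSA stands for sensitization with DNP-IgE and challenge with DNP-BSA, the antigen that cross-links IgE on its receptor, and luteolin is a plant flavone. The labels give luteolin at 10 µM for 24 h, and the order of luteolin and antigen is not clear from the sources used here. No label says whether replicates were separate cultures or animals, so p-values measure only the spread between these libraries, which may be technical.

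Before S phase the origin recognition complex, with Cdc6 and Cdt1, loads the Mcm2-7 ring on DNA, which licenses an origin. Cdc45, the GINS complex and Mcm10 then turn the ring into an active helicase, polymerase alpha with primase lays the first primers, and polymerases delta and epsilon extend them while held on DNA by the Pcna clamp, which the Rfc complex loads. Many of these genes are transcribed at the G1-S boundary under E2F factors, and in cultured mast cells interleukin-3 and stem cell factor drive the cell cycle. Because the RNA came from whole cultures, fewer cells in S phase and less RNA per cell cannot be told apart in any value below.

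To show the E2F sites for which these genes are known, RefSeq promoter windows (GRCm38.p6, 250 bases before to 50 after each start) were searched on both strands for TTTGGCGC, TTTGCCGC, TTTCGCGC and TTTCCCGC. A window was present for 39 of the 47 genes, and 16 of the 39 (41%) held a match, against 704 of all 27025 genes with a window (2.6%). Of 33 other replication genes with a window 9 matched (27.3%), and of 19 mitosis genes 1 did (5.26%). The stretches below lie upstream of the starts of the 3 genes that were called lower with luteolin, Orc1, Pola1 and Pcna, and of Mcm6 and Mcm5, which carry overlapping matches on opposite strands. They run from -200 to -20 of the RefSeq start, of which the last 12 bases of Orc1 lie in an exon of the GENCODE annotation, and for Pcna from -250 to -135, where GENCODE places an earlier start. Capitals mark the matches.
Orc1, chr4:108579254-108579434, strand +: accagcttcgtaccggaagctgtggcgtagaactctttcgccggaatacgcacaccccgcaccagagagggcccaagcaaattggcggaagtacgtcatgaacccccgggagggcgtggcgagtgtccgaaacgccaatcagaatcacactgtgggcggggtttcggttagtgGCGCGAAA
Pola1, chrX:93632175-93632355, strand -: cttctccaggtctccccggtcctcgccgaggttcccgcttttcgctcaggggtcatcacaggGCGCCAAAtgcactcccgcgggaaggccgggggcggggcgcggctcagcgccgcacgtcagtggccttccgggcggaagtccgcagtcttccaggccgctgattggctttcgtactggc
Pcna, chr2:132253315-132253430, strand -: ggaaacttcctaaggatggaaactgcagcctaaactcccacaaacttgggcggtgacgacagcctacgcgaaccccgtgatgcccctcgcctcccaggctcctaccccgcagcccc
Mcm6, chr1:128359725-128359905, strand -: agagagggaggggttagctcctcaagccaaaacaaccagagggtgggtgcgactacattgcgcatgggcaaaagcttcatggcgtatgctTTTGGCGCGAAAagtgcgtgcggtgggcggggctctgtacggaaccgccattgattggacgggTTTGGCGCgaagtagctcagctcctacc
Mcm5, chr8:75109309-75109489, strand +: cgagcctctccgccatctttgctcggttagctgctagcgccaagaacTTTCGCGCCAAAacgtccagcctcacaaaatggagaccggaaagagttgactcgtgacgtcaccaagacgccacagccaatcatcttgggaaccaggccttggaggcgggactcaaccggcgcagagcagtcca
In Orc1 the match began at -27 from the start on the strand opposite to the gene, and in Pola1 at -138 on the opposite strand. In Mcm6 matches began at -110, -106 and -47, and in Mcm5 at -153 and -149. None of these letters stood anywhere in the window of Pcna, which says only that they are not in this window. The 39 genes had 48 windows, and a gene counted as a match if any of its windows matched. The letters CCAAT stood in a window of 25 of the 39 genes (64.1%, against 41.1% of all genes). TGACGTCA did so in 1 (2.56% against 2.03%), GCGNGGGCG in 5 (12.8% against 6.27%) and TGANTCA in 0 (against 8.97%).

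Libraries held 9515004 to 24605689 counts on genes, the lowest in Control replicate 2, where 3 counts corresponded to 0.315 CPM, against 0.122 to 0.149 CPM in the other 8 libraries, for counting error only. Values are CPM scaled by TMM factors. Mast cell markers were high in every library, with a summed level of 51220 to 79200 CPM over 10 genes, while Cd3e, Cd8a, Ms4a1 and Siglech, markers of T, B and dendritic cells, had 0 counts. Control replicate 1 stood apart from Control replicates 2 and 3. Neutrophil and precursor markers summed to 230.1 CPM in it, and to 8.573 and 8 CPM in the other 2 Control libraries. They summed to 152 to 167.6 CPM in IgE+BSA and to 181 to 213 CPM in IgE+BSA+Luteolin. All 8 of these genes were lower in Control replicates 2 and 3 than in the other 7 libraries. So were 3 of 10 mast cell, 2 of 8 macrophage and monocyte, 1 of 4 erythroid and 1 of 3 megakaryocyte markers. That share over all genes tested was not counted, but 22.6% of them were called higher in IgE+BSA than in those 2 Control libraries. Mcpt8, a basophil protease, was at 19.9 and 18.1 CPM in Control replicates 2 and 3 and at 288 to 442 CPM elsewhere, while the basophil marker Cd200r3 was higher in those 2 libraries (954 and 988 CPM) than elsewhere (626 to 776 CPM), and 1 of 3 basophil markers was lower there than in the other 7. Prg2, an eosinophil granule protein, was at 0.09 and 0 CPM there and at 13.6 to 32.3 CPM elsewhere, and 2 of 3 eosinophil markers were lower there than in the other 7, Siglecf (11.8 and 9.71 CPM, against 4.23 CPM in Control replicate 1) not among them. Over the 9 libraries, summed levels were 1424 to 1922 CPM for 3 basophil, 250.7 to 352 CPM for 8 macrophage and monocyte, 9.711 to 38.24 CPM for 3 eosinophil, 0.8358 to 3.784 CPM for 4 erythroid and 1664 to 2238 CPM for 3 megakaryocyte markers (of which Itga2b made up 1654 to 2221 CPM), and under 1 CPM for T, B and dendritic cell markers.

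The 47 replication genes divided the Control libraries in the same way. Their summed level was 6508 CPM in Control replicate 1, and 3302 and 3516 CPM in Control replicates 2 and 3. It was 5506 to 6121 CPM in IgE+BSA and 5921 to 6296 CPM in IgE+BSA+Luteolin, so the last 2 groups overlapped and Control replicate 1 lay above all 6 of their libraries. With library size alone as the scaling the sums were 5252 to 5591 CPM in IgE+BSA and 5901 to 6062 CPM in IgE+BSA+Luteolin, without overlap, and 6397 CPM in Control replicate 1. Each of the 47 genes was higher in Control replicate 1 than in both other Control libraries, which was so for 50.3% of all genes tested, with a median ratio of 1.99 to the mean of the other 2, from 1.06 for Ccne2 to 4.1 for Ccne1. The summed level of 22 mitosis genes was 2027 to 2315 CPM over all 9 libraries, and 10 of the 22 were higher in Control replicate 1 than in both other Control libraries. The median coefficient of variation of the 47 genes was 43.8% in Control (19.8% over all genes tested), 5.3% in IgE+BSA (7.3%) and 4.99% in IgE+BSA+Luteolin (7.19%).

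**Figure D1:**
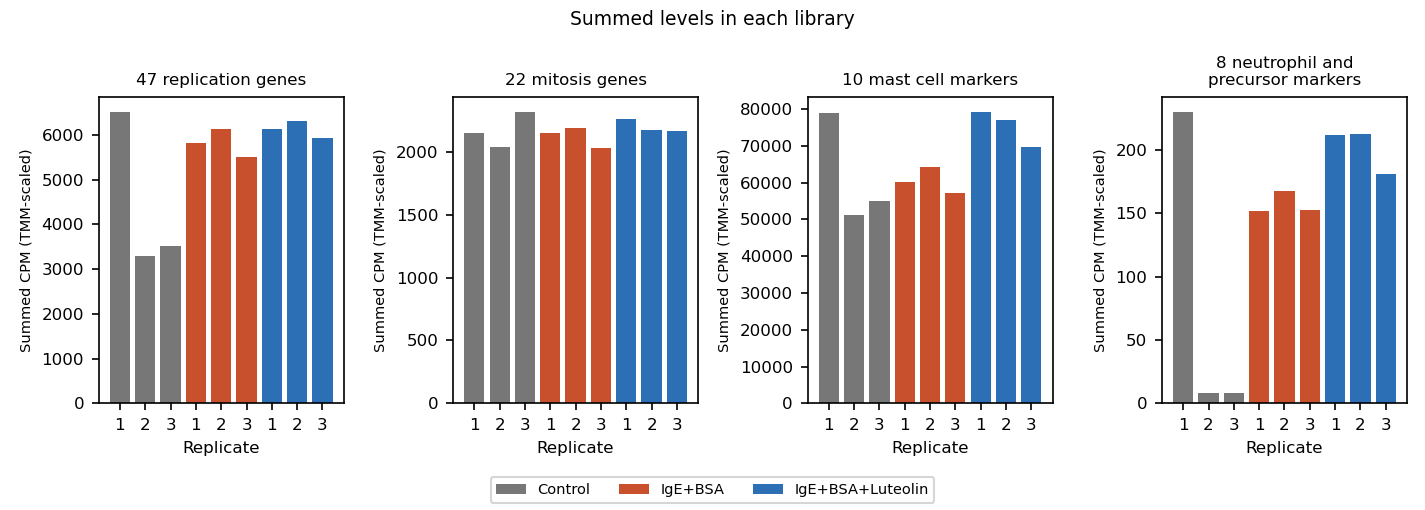
Summed TMM-scaled CPM (vertical axes, from 0) in each of the 9 libraries (horizontal axes, by replicate; colours mark the groups) for the 47 replication genes, 22 mitosis genes, 10 mast cell markers and 8 neutrophil and precursor markers. Replication genes reach 6508 CPM in Control replicate 1 and 3302 and 3516 CPM in Control replicates 2 and 3, where neutrophil markers are at 8.573 and 8 CPM.

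**Figure D2:**
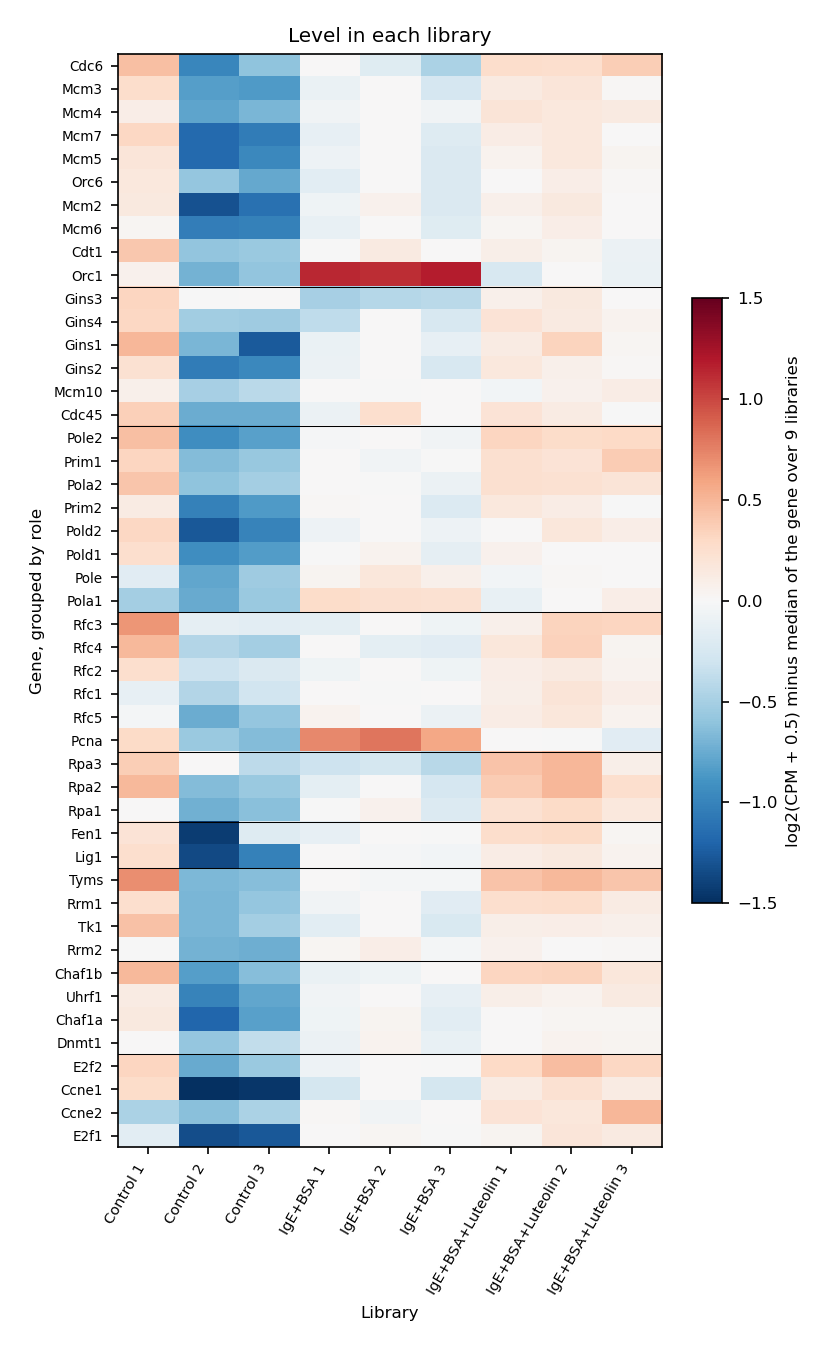
Level of each of the 47 genes (rows, grouped by role) in each library (columns), as log2(CPM + 0.5) minus the median of the gene over the 9 libraries (colour scale). Control replicates 2 and 3 are low for most rows, Orc1 and Pcna are high in the 3 IgE+BSA libraries, and Control replicate 1 is above the median for most rows.

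The comparison of IgE+BSA+Luteolin with IgE+BSA, which asks what luteolin changed in stimulated cells, had the smallest spread. Orc1, the subunit of the origin recognition complex that binds ATP and recruits Cdc6, fell to 0.402 of its IgE+BSA level, Pcna, the sliding clamp, to 0.573, and Pola1, the catalytic subunit of polymerase alpha, to 0.813. Against them 18 of the 47 genes rose, by 1.11-fold (Mcm4) to 1.56-fold (Rpa3), and 26 did not pass the test. With all 9 libraries in 1 fit, where the spread of the Control libraries enters, only Gins3 was higher and Orc1 and Pcna lower, against 1.52% and 7.93% of all genes, so the calls of the other 17 increases and of the decrease of Pola1 were lost there. By edgeR's quasi-likelihood test with an adjusted p under 0.05, 18.1% of all genes tested were higher and 21.9% lower in IgE+BSA+Luteolin, so 18 higher and 3 lower of 47 compare with 2097 and 2527 of 11560. The median log2 fold change of the 47 genes was 0.15, against 0.02 over all genes tested, and 41 of them were above 0. Summed over the 47 genes the level was 1.05 times that in IgE+BSA, and 1.12 times without Pcna, which had the most counts.

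With library size alone as the scaling, the median over all genes moved to 0.13 and that of the 47 genes to 0.26, which leaves their difference at 0.13 in both scalings. In that scaling 36 of the 47 genes were higher and 3 lower, against 33.4% higher and 15.3% lower over all genes, so the number of small increases depends on the scaling. Orc1, Pcna and Pola1 stayed lower there, at smaller log2 fold changes of -1.20, -0.69 and -0.19. With each library left out in turn, 10 to 20 genes were higher (10 without IgE+BSA+Luteolin replicate 2 and 11 without IgE+BSA+Luteolin replicate 1) and 3 were lower, while the shares over all genes ran from 10.5% to 19.9% higher and from 17.6% to 24% lower in the same fits. The summed level of neutrophil and precursor markers was also above its IgE+BSA range in IgE+BSA+Luteolin, though Ly6g, Ltf, Mpo and Elane overlapped between the groups. By the test 2 of these 8 markers were higher, as were 4 of 10 mast cell markers (2 lower) and 3 of 3 basophil markers. Their part in the differences of 1.11- to 1.56-fold was not tested.

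**Figure D3:**
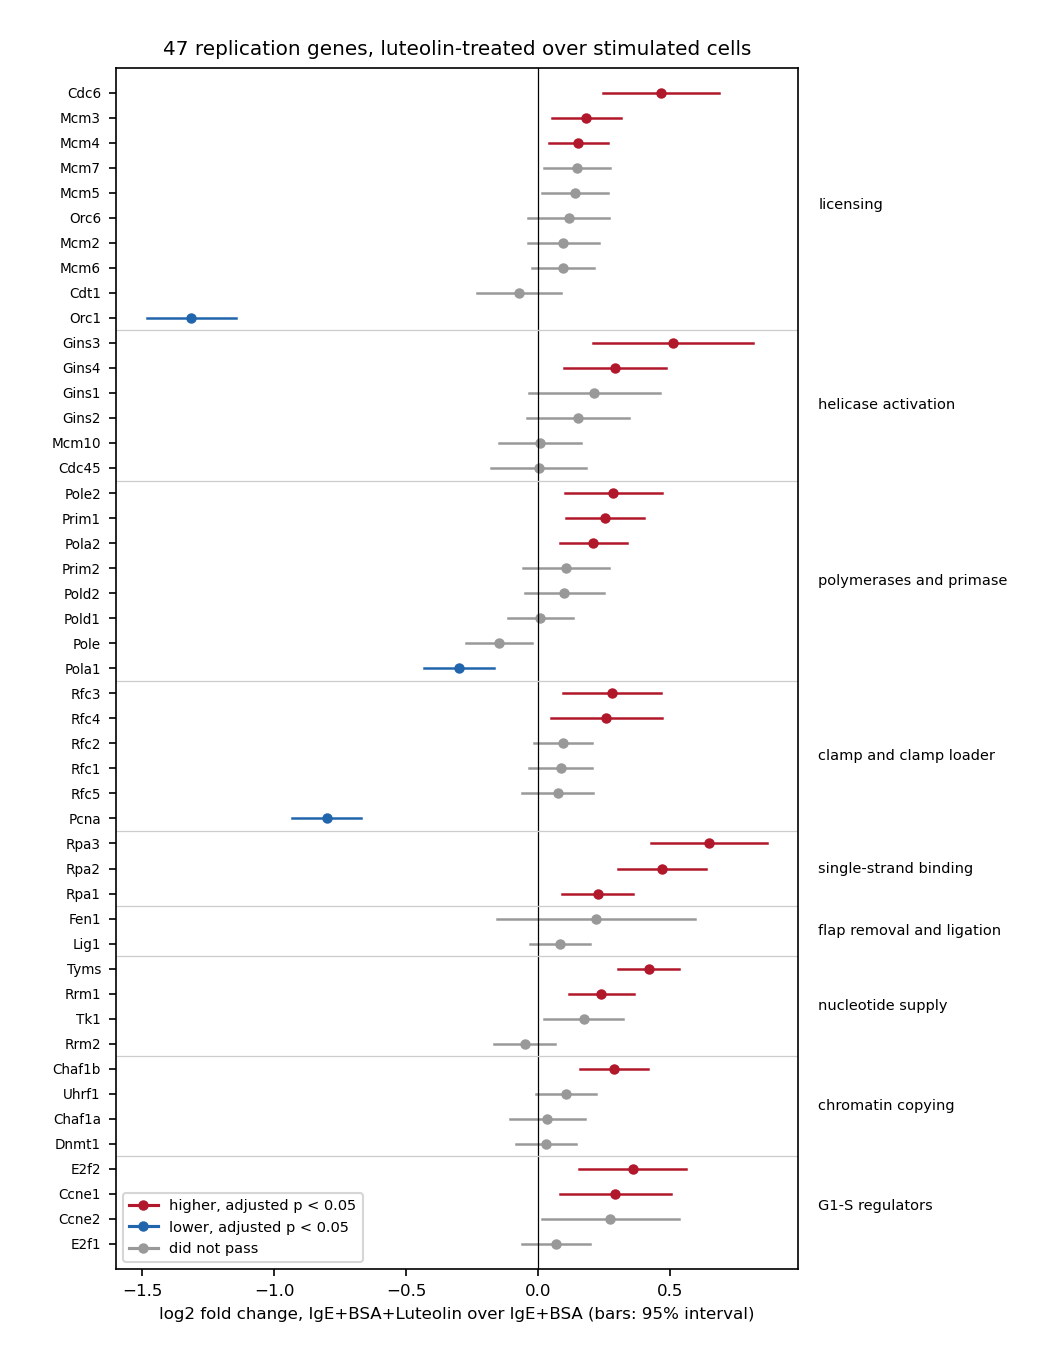
Log2 fold change of IgE+BSA+Luteolin over IgE+BSA (horizontal axis; points, with bars for the 95% interval of edgeR's fit, n = 3 libraries a group) for the 47 genes (vertical axis), grouped by role. Orc1 (-1.31), Pcna (-0.80) and Pola1 (-0.30) lie below 0 in blue, 18 genes lie above 0 in red, and 26 in grey did not pass an adjusted p of 0.05.

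Among the 10 licensing genes, 3 rose, 1 fell and 6 did not pass. Orc1 (ENSMUSG00000028587, chromosome 4, 108579423 to 108614833 on GRCm38, GENCODE annotation) was at 53.9, 52.9 and 55.5 CPM in IgE+BSA, at 20.5, 24.3 and 22.6 CPM in IgE+BSA+Luteolin, and at 25.4, 14.7 and 15.9 CPM in Control. All 3 IgE+BSA libraries lay above the other 6, and the luteolin libraries lay within the Control range. Its log2 fold change was -1.31 (SE 0.08, adjusted p = 7.56e-10 from edgeR). Cdc6, which helps to load the Mcm ring on DNA, was at 26.7, 23.5 and 19.1 CPM in IgE+BSA and at 32.1, 31.9 and 34.6 CPM in IgE+BSA+Luteolin. The log2 fold change of Cdc6 was 0.46 (SE 0.10, adjusted p = 0.00214 from edgeR). So 2 partners of the same loading reaction moved in opposite directions. Of the helicase subunits, Mcm3, which had the highest level per exon length of the licensing genes (103 CPM per kb), rose from between 352 and 417 CPM to between 424 and 474 CPM, a log2 fold change of 0.18 (SE 0.06, adjusted p = 0.0283 from edgeR). Mcm4 rose by 0.15 on the log2 scale, and Mcm2, Mcm5, Mcm6 and Mcm7, at 0.09 to 0.15, did not pass. The calls of Mcm3 and Mcm4 were lost in 6 and 8 of 19 alternative fits, and that of Cdc6 in 1. Cdt1 and Orc6 had log2 fold changes of -0.07 and 0.12 and did not pass.

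Because the 6 Mcm genes encode 1 ring, counts can also be given as a share of their sum within each library, which no scaling factor enters. That sum itself moved, at 2042 CPM in Control replicate 1, 886 and 936 CPM in the other 2 Control libraries, 1581 to 1823 CPM in IgE+BSA and 1841 to 2007 CPM in IgE+BSA+Luteolin, so such a share also follows its denominator. Orc1 counts were 2.9% to 3.51% of Mcm2-7 counts in IgE+BSA, 1.06% to 1.23% in IgE+BSA+Luteolin and 1.25% to 1.7% in Control. Pcna counts were 43.3% to 44.8% of Mcm2-7 counts in IgE+BSA, 22.2% to 23.8% in IgE+BSA+Luteolin and 27.4% to 35.3% in Control. On this scale the IgE+BSA libraries lay above all other 6 for both genes, Control replicate 1 (1.25% and 27.4%) was the lowest of the 3 Control libraries, and the luteolin libraries lay below every Control library, whereas in CPM luteolin libraries lay within the Control range for Orc1 and between Control replicate 1 and the other 2 Control libraries for Pcna. With 3 libraries against 3, the exact two-sided permutation test of such a share cannot go below p = 0.10.

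**Figure D4:**
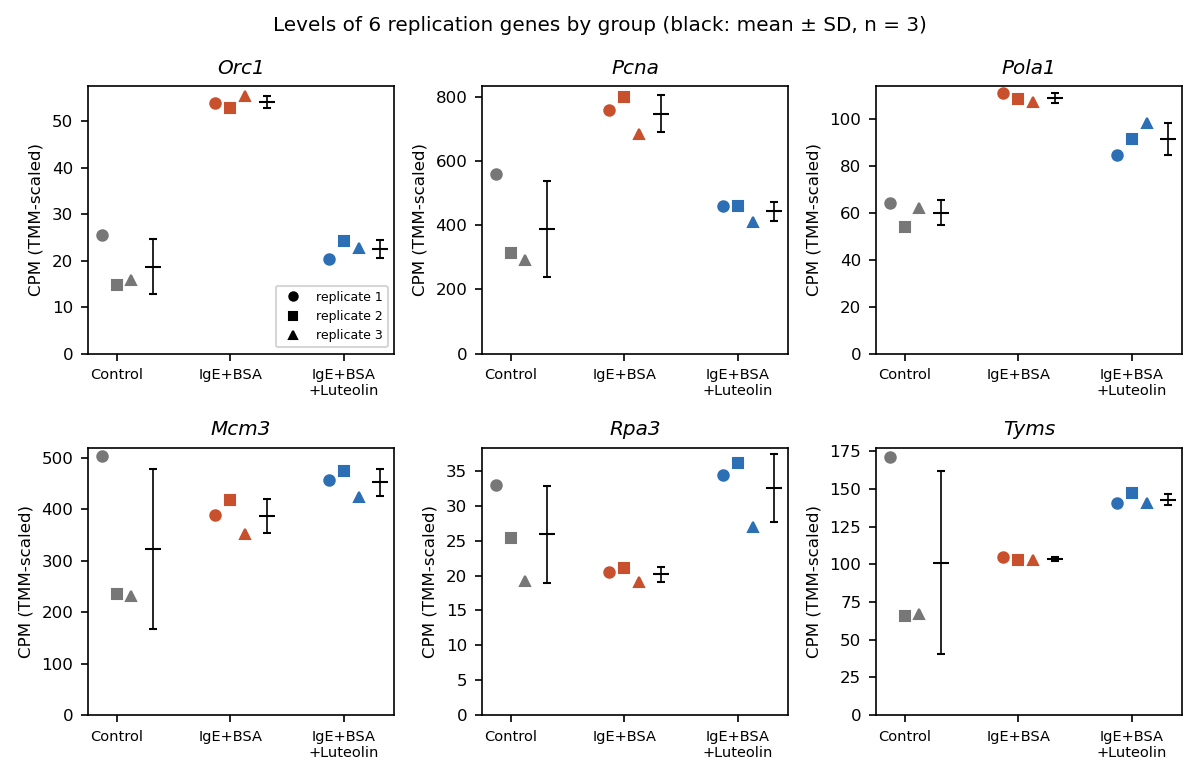
TMM-scaled CPM (vertical axes, from 0) of Orc1, Pcna, Pola1, Mcm3, Rpa3 and Tyms in the 3 libraries of each group (points; shapes mark the replicate) with mean ± SD (black, n = 3). Orc1, Pcna and Pola1 are highest in IgE+BSA, Rpa3 and Tyms are higher in IgE+BSA+Luteolin than in IgE+BSA, and in Control replicate 1 (circles) Mcm3 and Tyms lie far above replicates 2 and 3.

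Of the 6 genes of helicase activation, 2 rose and 4 did not pass. Gins3, a GINS subunit, was at 5.87, 6.2 and 6.29 CPM in IgE+BSA and at 8.98, 9.46 and 8.58 CPM in IgE+BSA+Luteolin, a log2 fold change of 0.51 (SE 0.14, adjusted p = 0.00974 from edgeR). After thinning of all libraries to the smallest total it was 0.35 and did not pass. Gins3 was the least abundant of these genes per exon length (3 CPM per kb), and at 8.48 to 10.8 CPM its Control libraries all lay above IgE+BSA. Gins4, the most abundant per exon length (25.4 CPM per kb), was at 27.6, 36.2 and 30.5 CPM in IgE+BSA and rose to 41.8, 39.7 and 37.5 CPM, a call lost in 6 of 19 alternative fits. Cdc45, which joins the Mcm ring and GINS, was at 44.7 to 56.4 CPM and 47.1 to 54.5 CPM, overlapping ranges, with a log2 fold change of 0.00 (95% interval -0.18 to 0.18). Mcm10 was at 0.01 (-0.15 to 0.16), so a change of either gene by more than 0.18 in either direction lay outside its interval.

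The 4 subunits of polymerase alpha-primase did not move as 1 group. Pola1 (chromosome X, 93304767 to 93632155) was at 111, 109 and 107 CPM in IgE+BSA, at 84.8, 91.6 and 98.3 CPM in IgE+BSA+Luteolin and at 64.1, 54.2 and 62.1 CPM in Control. It fell, with a log2 fold change of -0.30 (SE 0.06, adjusted p = 0.0013 from edgeR), and the luteolin libraries lay between those of the other 2 groups. Pola2 and Prim1, the accessory subunit and the catalytic primase, rose by 0.21 and 0.25 on the log2 scale (adjusted p = 0.0105 and 0.00899 from edgeR, lost in 2 and 1 of 19 alternative fits), and Prim2, at 0.11, did not pass. As a share of the counts of the 4 genes, Pola1 was 40% to 40.9% in IgE+BSA, 30.5% to 34% in IgE+BSA+Luteolin and 23.7% to 36.6% in Control. Of the polymerases that extend primers, Pole2 rose from between 18.7 and 19.5 CPM to between 23.6 and 24.5 CPM (log2 fold change 0.28, SE 0.09, adjusted p = 0.0162 from edgeR), a call lost in 5 of 19 alternative fits. Pole, its catalytic partner, had a log2 fold change of -0.15 (adjusted p = 0.0536), Pold2 was at 0.10, and Pold1, the most abundant per exon length of the 8 polymerase and primase genes (23.1 CPM per kb), was at 111 to 126 CPM and 122 to 127 CPM, with a log2 fold change of 0.01 (95% interval -0.12 to 0.13).

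Pcna (ENSMUSG00000027342, chromosome 2, 132249162 to 132253314) had the highest level per exon length of all 47 genes, 219 CPM per kb over the 9 libraries. It was at 759, 798 and 685 CPM in IgE+BSA, at 459, 458 and 409 CPM in IgE+BSA+Luteolin and at 560, 313 and 291 CPM in Control. The IgE+BSA libraries lay above all others, and the log2 fold change with luteolin was -0.80 (SE 0.06, adjusted p = 2.02e-08 from edgeR). A processed copy, Pcna-ps2, took 0.603% as many counts as Pcna, and how reads shared by the copies were counted is not given in the sources used here. The 5 clamp loader genes went the other way or did not pass. Rfc3 was at 27.1, 30.1 and 28.8 CPM and rose to 31.6, 38.2 and 37.8 CPM (log2 fold change 0.28, SE 0.09, adjusted p = 0.018 from edgeR), and Rfc4 rose by 0.26 at an adjusted p of 0.05, just inside the threshold. Their calls were lost in 4 and 13 of 19 alternative fits. Rfc1, Rfc2 and Rfc5, at 0.07 to 0.09, did not pass.

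All 3 subunits of replication protein A, which coats single-stranded DNA, rose. Rpa3 was at 20.5, 21 and 19 CPM in IgE+BSA and at 34.5, 36.2 and 27 CPM in IgE+BSA+Luteolin, the largest increase of the 47 genes, with a log2 fold change of 0.65 (SE 0.10, adjusted p = 0.000131 from edgeR). Rpa2 rose by 0.47 (adjusted p = 0.000183). Rpa1, the large subunit and the most abundant per exon length (34.6 CPM per kb), was at 199, 210 and 173 CPM and rose to 235, 243 and 224 CPM (log2 fold change 0.23, SE 0.06, adjusted p = 0.00999 from edgeR), a call lost in 3 of 19 alternative fits.

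Of the genes that join finished fragments, Lig1, the replicative ligase, was at 178 to 184 CPM and 191 to 204 CPM (log2 fold change 0.08, adjusted p = 0.229 from edgeR). Fen1, the flap nuclease, was at 4.43 to 4.88 CPM and 4.99 to 6.04 CPM (0.22, adjusted p = 0.347). Its counts carry a doubt, since 84.2% of its exon bases also lie in exons of Tmem258 or Gm10143 on the other strand, and the strand setting of the counting is not given in the sources used here. The same holds for Gins2 (67.3%, with Gse1), Chaf1a (52.5%, with Ubxn6), Ccne2 (17.4%, with Ints8) and Rfc2 (15.1%, with Lat2), and for shares of 12.7% or less in Rfc4, Orc1, Rfc5, Mcm7, Orc6, Cdc45, Lig1, Tk1 and Pole. On the same strand, and so whatever the strand setting, exon bases were shared in Pole2 (8.5%, with Gm49384), Mcm7 (3.89%, with Mir25 and Mir93) and Rpa1 (0.789%, with Gm47300).

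Among the 4 genes of nucleotide supply, 2 rose. Tyms, thymidylate synthase, was at 105, 103 and 103 CPM in IgE+BSA and at 141, 147 and 141 CPM in IgE+BSA+Luteolin, with a log2 fold change of 0.42 (SE 0.05, adjusted p = 1.41e-05 from edgeR), the smallest adjusted p among the genes that rose. Rrm1, the large subunit of ribonucleotide reductase, rose by 0.24 (adjusted p = 0.00382). Rrm2, the small subunit and the most abundant of the 4 per exon length (65.6 CPM per kb), was at 192 to 211 CPM and 197 to 206 CPM, with a log2 fold change of -0.05 (95% interval -0.17 to 0.06), and Tk1, thymidine kinase, was at 0.17 (adjusted p = 0.0617 from edgeR). Of the genes that copy chromatin, Chaf1b, a subunit of the histone chaperone CAF-1, was at 98.1, 100 and 105 CPM and rose to 131, 133 and 119 CPM (log2 fold change 0.29, SE 0.06, adjusted p = 0.00161 from edgeR). Its partner Chaf1a, at 0.03, Uhrf1, which recruits the maintenance methyltransferase and had the highest level per exon length of the 4 (41.6 CPM per kb), at 0.10, and that enzyme, Dnmt1, at 0.03 (95% interval -0.09 to 0.14), did not pass. Uhrf1 was at 177 to 193 CPM in IgE+BSA and 201 to 212 CPM in IgE+BSA+Luteolin, and Dnmt1 at 294 to 327 CPM and 316 to 327 CPM. Of the G1-S regulators, E2f2, an activating E2F factor, was at 15.6, 16.6 and 16.4 CPM and rose to 20.5, 23.1 and 20.7 CPM (log2 fold change 0.36, SE 0.10, adjusted p = 0.00738 from edgeR), a call lost in 2 of 19 alternative fits. Ccne1, a cyclin E, rose by 0.29 (adjusted p = 0.0274, a call lost in 8 of 19 alternative fits), while Ccne2, at 0.27, and E2f1, at 65.9 to 67.5 CPM and 68.2 to 74.9 CPM (0.07), did not pass. Of the genes with a promoter window, 6 of 16 that rose, 2 of 3 that fell and 8 of 20 that did not pass held the E2F letters.

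The comparison of IgE+BSA with Control asks what stimulation changed. Over all 3 Control libraries 2 genes rose, Orc1 and Pola1, and 0 of 47 were lower, against 2.25% higher and 1.02% lower over all genes tested by edgeR (260 and 118 genes, or 173 and 295 with library size alone as the scaling). At an unadjusted p under 0.05 the counts were 7 higher and 1 lower, against 10.8% and 9.67% of all genes, and DESeq2 called 4 higher and 1 lower, against 5.18% and 5.43%. Orc1 rose 1.49 on the log2 scale (SE 0.19, adjusted p = 0.00892) and Pola1 rose 0.81 (SE 0.10, adjusted p = 0.00597 from edgeR), and for both genes every IgE+BSA library lay above every Control library. Pcna was at 0.91 (SE 0.23, adjusted p = 0.0861 from edgeR). With any IgE+BSA library left out, Orc1 and Pola1 no longer passed, and 0 of the 47 genes were called, against 0.753% to 0.917% higher and 0.0173% to 0.0433% lower over all genes.

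The direction of most other genes against Control turned with the Control libraries used. Without Control replicate 1, 40 genes were higher and 1 was lower in IgE+BSA, against 22.6% and 22.4% over all genes, with a median log2 fold change of 0.54. With Control replicate 1 as the one Control library, which is assumed to vary like the IgE+BSA libraries, 5 were higher and 24 lower, against 23.1% and 19.2%, with a median of -0.28. The 5 were Orc1 (1.1), Pola1 (0.78), Ccne2 (0.50), Pcna (0.43) and Pole (0.28), which were also higher against Control replicates 2 and 3 alone. Mcm7 is an example of the others, with a log2 fold change of 0.87 against Control replicates 2 and 3 (adjusted p = 4.72e-07 from edgeR) and -0.40 against Control replicate 1 (adjusted p = 0.00236). Tyms went from 0.51 to -0.71 in the same way. Gins3 was lower in both, at -0.61 and -0.81. Neutrophil and precursor markers move with the same libraries, all 8 being higher in IgE+BSA than in Control replicates 2 and 3 by the same test, and their part in these differences was not tested.

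The comparison of IgE+BSA+Luteolin with Control asks how far treated cells stood from unstimulated ones. By edgeR 0 of 47 genes were called, against 0.285% higher and 2.75% lower over all genes tested, while 8 were higher and 0 lower at an unadjusted p under 0.05, against 8.08% and 14.9% of all genes. DESeq2 called 5 higher and 0 lower, against 3.04% and 8.89%. The lowest adjusted p was 0.0509, for Pola1, at a log2 fold change of 0.51 (SE 0.10). The median of the 47 genes was 0.42, against 0.01 over all genes tested. Without Control replicate 1, 46 of 47 genes were higher and 0 lower, against 29.9% and 30.1%, with a median of 0.75 and the largest log2 fold change, 1.72, in Ccne1. With Control replicate 1 alone 2 were higher, Ccne2 (0.78) and Pola1 (0.50), and 7 lower, against 11.6% and 9.55%, with a median of -0.13. Orc1, which stimulated cells held above every Control library, had log2 fold changes of 0.17 (95% interval over 3 Control libraries -0.27 to 0.62), 0.40 without Control replicate 1 and -0.20 against it. Cell type markers also moved in the fit without Control replicate 1. All 8 neutrophil and precursor markers were higher in IgE+BSA+Luteolin there, as were 6 of 10 mast cell (2 lower) and 2 of 3 eosinophil markers (1 lower). Their part in the differences was not tested. Both comparisons with Control share its 3 libraries, so their values are not independent of each other.

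**Figure D5:**
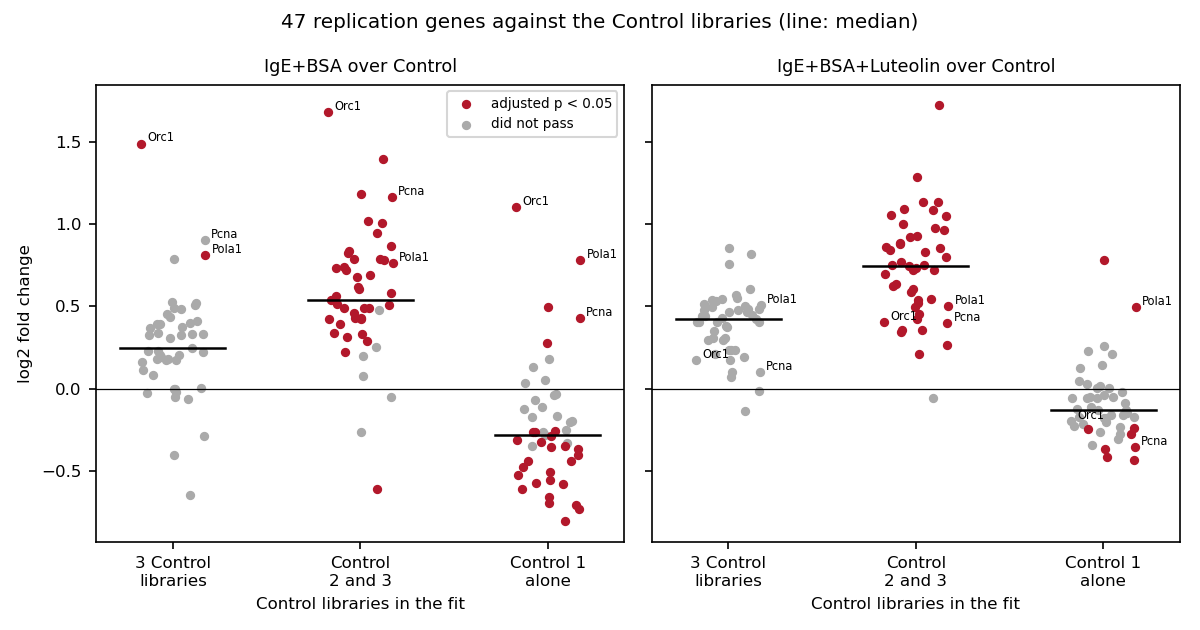
Log2 fold change of each of the 47 genes (points; red, adjusted p under 0.05; black lines, medians) in IgE+BSA (left) and IgE+BSA+Luteolin (right) over 3 sets of Control libraries (horizontal axis). In IgE+BSA the median is 0.25 over all 3 Control libraries, 0.54 over replicates 2 and 3 and -0.28 over replicate 1 alone, while Orc1, Pola1 and Pcna stay above 0 in all 3 sets.

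Other gene lists of the cell cycle were read in the same fits, to be set against the 18.1% higher, 21.9% lower and median of 0.02 over all genes with luteolin. Of 40 other genes of DNA replication 15 rose (37.5%) and 3 fell (7.5%) with luteolin, with a median log2 fold change of 0.15. Those that fell were Ticrr (-0.52), which brings Cdc45 to origins, Atad5 (-0.45), which unloads Pcna, and Top1 (-0.33), which relaxes supercoils. Orc5 (0.37) and Cdc7 (0.34) were among those that rose. The other 25 G1-S regulators tested, of 27, held 3 that rose (12%) and 9 that fell (36%), with a median of -0.08. The cell cycle inhibitors Cdkn2b (-1.98) and Cdkn1a (-1.14) and the growth factor target Myc (-1.08) were lowest, and Cdc25a (0.42), Ccnd3 (0.30) and Cdk4 (0.29), which promote G1 progression, were higher. Cdkn1a, which encodes the Pcna-binding inhibitor p21, also had its IgE+BSA libraries above all others, at 1286, 1300.2 and 1201 CPM, against 576 to 605 CPM in IgE+BSA+Luteolin and 866, 566 and 565 CPM in Control, and rose by 0.88 in IgE+BSA over Control (adjusted p = 0.0364 from edgeR). Tfdp1, the partner of E2F factors, rose by 0.56 in that comparison. In IgE+BSA+Luteolin, Cdkn2b (-1.51), Cdkn1b (-1.48) and Myc (-0.86) were below Control.

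Of 18 genes of replication stress and p53 response, 9 fell (50%) and 3 rose (16.7%) with luteolin, with a median of -0.23. Bbc3 (-1.72), Wee1 (-1.67) and Sesn2 (-1.30) were lowest, and Chek2 (0.44) and Trp53 (0.21) were among those that rose. Wee1, the kinase that restrains Cdk1, was at 42.6 to 52.9 CPM in IgE+BSA, 14.1 to 17.4 CPM in IgE+BSA+Luteolin and 15.7 to 21.8 CPM in Control, so its IgE+BSA libraries lay above all others, as those of Orc1 did. Wee1 (1.30) and Sesn2 (0.90) also rose in IgE+BSA over Control, and Bbc3 fell by 2.7 on the log2 scale in IgE+BSA+Luteolin over Control. The 22 mitosis genes held 4 that rose (18.2%) and 3 that fell (13.6%), with a median of 0.09, so the share that rose was at that over all genes. Cenpe (-0.40), Ccnb1 (-0.34) and Cdc20 (-0.29) fell, and Ube2c, Plk1, Birc5 and Cdk1 rose by 0.21 to 0.22. Ube2c was lower in IgE+BSA than in Control (-0.63), and Cdc20 lower in IgE+BSA+Luteolin than in Control (-0.54). The proteasome list, which shares no gene with the others, held 24 of 31 genes that rose (77.4%) and 0 that fell, with a median of 0.22 and the highest values in Psma1 (0.35), Psma6 (0.31) and Psma4 (0.31). These counts were not tested against those of the 47 genes.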

How the data were processed

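Poly(A) RNA of 9 BMMC libraries was prepared with a stranded kit. Reads were filtered with HTStream and aligned with STAR 2.7.0f to mm10, and the authors deposited unnormalized read counts for every Ensembl gene ID, in columns whose names point to htseq-count. The annotation release, strand setting and handling of multiply mapped reads are not given in the sources used here. The deposited counts list 37 mitochondrial genes, all at 0. Libraries were grouped by their labels.

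From these counts, each comparison was fitted on its own 6 libraries by the two-sided quasi-likelihood test of edgeR 4.0.16 in R 4.3.3 with TMM factors. P-values were adjusted by Benjamini-Hochberg over all genes whose median CPM passed 1 (11560 genes), at a threshold of 0.05. Per-gene CPM values use TMM factors over all 9 libraries. Symbols, coordinates and exon lengths came from GENCODE (47224 of 47643 IDs matched), and promoter windows from RefSeq. The scripts were tested on simulated data. Replicate libraries were compared by chi-square of their counts, which was 4.04 per degree of freedom or more for every pair, so none was counted as a copy of another. Libraries held 9515004 to 24605689 counts.

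The genes, lists and motifs were chosen with earlier results of these data known. All 47 genes could be named. Values per library, or their range, are given, within each role, for the genes with the highest and lowest log2 fold change with luteolin and the highest level per exon length, and for genes called in another comparison. Of each further list, the 3 highest and 3 lowest called genes are named, with any called in another comparison, apart from genes that are not reported here. The examples Mcm7, Tyms and Gins3 against Control and library values of Cdkn1a, Cdkn1b and Wee1 were chosen after their values were seen. Alternatives were DESeq2 1.42.0, limma 3.58.1, other scalings and filters, all 9 libraries in 1 fit, the replicate number as a block, thinning, a gene length offset, robust dispersion, a 1.5-fold minimum, each replicate left out in turn and, chosen after seeing the data, Control replicate 1 as the one Control library.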

Additional observations from a re-analysis of the deposited data

How the results depend on the processing

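Between IgE+BSA+Luteolin and IgE+BSA, 21 of 47 genes were called. The number was 39 with library size alone, 32 with upper-quartile factors, 3 with all 9 libraries in 1 fit (Orc1 and Pcna lower, Gins3 higher), where the spread of the Control libraries enters, and 3 with a minimum of 1.5-fold, and 13 to 23 with each replicate left out (13 without IgE+BSA+Luteolin replicate 2). All genes called numbered 4624, with 5623 for library size alone (33.4% higher, 15.3% lower) and 5286 for upper-quartile factors (28.3% higher, 17.5% lower). They numbered 1093 with all 9 libraries, 1232 with the 1.5-fold minimum and 3242 to 5082 with each replicate left out. The median log2 fold change of the 47 genes was 0.15, with 0.26 for library size alone, 0.22 for upper-quartile factors and 0.10 to 0.17 with each replicate left out, and the summed level was 1.05 times that of IgE+BSA, 1.1 times with library size alone and 1.12 without Pcna. Orc1 and Pcna passed in every alternative, and with Rpa3 were the 3 genes that met the 1.5-fold minimum. Pola1 passed in all but the fit of 9 libraries and the 1.5-fold minimum. Of the genes called higher, Rfc4, Ccne1, Mcm4, Mcm3 and Gins4 were lost in the most alternatives. No direction of a called gene reversed.

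Between IgE+BSA and Control, 2 genes were called, 5 by DESeq2, 5 with all 9 libraries, 29 with Control replicate 1 as the one Control library and 0 to 41 with each replicate left out (41 without Control replicate 1, 0 without any IgE+BSA replicate). All genes called numbered 378, with 1227 by DESeq2, 618 without a filter, 1105 with all 9 libraries, 4892 with Control replicate 1 alone and 90 to 5207 with each replicate left out. Between IgE+BSA+Luteolin and Control, 0 genes were called, with 5 by DESeq2, 1 with DESeq2 size factors, 3 without a filter, 2 with filterByExpr, 5 with all 9 libraries, 1 after thinning, 2 with the gene length offset, 9 with Control replicate 1 alone and 0 to 46 with each replicate left out (46 without Control replicate 1). All genes called numbered 351, with 1379 by DESeq2, 811 without a filter, 1251 with all 9 libraries, 653 with the gene length offset, 2447 with Control replicate 1 alone and 2 to 6931 with each replicate left out. The medians of the 47 genes, 0.25 and 0.42, turned to -0.28 and -0.13 with Control replicate 1 alone, were 0.09 and 0.38 with library size alone (where the medians over all genes were -0.15 and -0.05) and 0.15 and 0.40 with upper-quartile factors, and ranged from 0.13 to 0.54 and from 0.27 to 0.75 with each replicate left out. Beyond the Control libraries left out, the cause was not tested.

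Replicate numbers are shared between groups, but nothing in the labels says what a number marks. Deviations from the group means correlated at -0.0237, 0.175 and 0.282 for the 3 same-numbered pairs of IgE+BSA and IgE+BSA+Luteolin. The mean was 0.144 for same-numbered and -0.0726 for differently numbered pairs, and 4 of these 6 libraries correlated best with their own number. These few values do not settle whether the numbers pair the samples, and the main fits used no block. With the replicate block, 25 of the 47 genes and 5582 of all genes were called in that comparison, 2 and 144 between IgE+BSA and Control, and 0 and 212 between IgE+BSA+Luteolin and Control. With the block and the gene length offset, 24, 3 and 0 of the 47 genes and 4775, 210 and 298 of all genes were called. Depth sets a floor of 3 counts, at 0.122 to 0.315 CPM, and the lowest value of any of the 47 genes was 1.5 CPM, for Fen1 in Control replicate 2.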

Other observations

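The difference between Control replicate 1 and Control replicates 2 and 3 belongs to no comparison of the study. All 31 proteasome genes were higher in Control replicate 1 than in both other Control libraries, with a median ratio of 1.98 to their mean, as all 47 replication genes were, at 1.99. Of 22 mitosis genes 10 were higher there, with a median ratio of 1.01, from 0.554 for Cenpf to 1.66 for Cdk1. Over all genes tested the share was 50.3% and the median ratio 1.07. Proteasome genes summed to 5448 CPM in Control replicate 1, to 2838 and 2898 CPM in the other 2, to 3811 to 4340 CPM in IgE+BSA and to 4571 to 5010 CPM in IgE+BSA+Luteolin.

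Cdkn1b, which encodes the cyclin-dependent kinase inhibitor p27, was at 116 and 114 CPM in Control replicates 2 and 3, at 64.6 CPM in Control replicate 1, at 44.3 to 53 CPM in IgE+BSA and at 34.4 to 40.8 CPM in IgE+BSA+Luteolin, so its order over the libraries ran against that of the replication genes within Control.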
